A study of Mus musculus with 12 samples.

Results

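The data described here compare tumours of mice given the peptide minP1 on top of an antibody against PD-L1 with tumours of mice given that antibody alone. The members were every gene symbol in the count tables of 6 libraries, 3 titled as carrying both agents and 3 titled as carrying the antibody only, of 12 libraries in the whole series. Each table held 19921 symbols, and 5443 of them passed the filter on low counts and were tested. The question a comparison of these groups answers is what the peptide adds in tumours that already received the antibody.

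All groups were wild-type BALB/c mice carrying subcutaneous tumours of Colon26, a mouse colon carcinoma line, grown from 200000 inoculated cells. The anti-PD-L1 group received 200 µg of antibody clone 10F.9G2 into the peritoneum on days 4 and 8. The combination group received the same antibody doses and 0.08 µg of minP1, a peptide derived from the chromatin protein HMGN1, into the peritoneum on day 9. A control group and a group given minP1 alone, of 3 mice each, enter the shared estimate of spread and one later comparison. Every tumour was taken on day 10, 1 day after the peptide, and each library came from the tumour of 1 mouse. The age of the mice is not given in the labels. The combined treatment appears in the sample titles only. The treatment field of those 3 samples names a plus sign and the antibody, so every result rests on the titles. Tumours were digested with collagenase and DNase, and a Percoll step depleted tumour cells and dead cells, so the libraries hold the host cells of the tumour and whatever carcinoma cells passed that step.

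PD-L1 on tumour and myeloid cells engages PD-1 on T cells and dampens their activation, and antibodies that block it are used as checkpoint therapy. HMGN1 released from cells acts as an alarmin, a self molecule that alerts innate immunity, and is known to activate dendritic cells through the receptor TLR4. TLR4 signals through NF-kB, which drives cytokine and chemokine genes, and through a branch that induces type I interferon, whose target genes carry interferon-stimulated response elements. Tumour-infiltrating macrophages and neutrophils read such signals, and they also clear debris, degrade matrix and handle lipids.

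The libraries were 5′-end tag libraries, and a gene's level is given as CPM, its count relative to the library's total, with totals scaled by trimmed-mean (TMM) factors. Sums over lists of genes are CPM of the unscaled totals. The antibody libraries held 188008 to 322493 counts and the combination libraries 133917 to 196109; antibody library 1 and the 3 combination libraries were the smallest of the series. Before TMM scaling, one count was worth 3.10 to 5.32 CPM in the antibody libraries and 5.10 to 7.47 CPM in the combination libraries, which limits what can be seen of genes near those values. On the first principal component, which held 49.2% of the variance, the combination libraries lay at 33.2 to 67.9 and the antibody libraries at −9.54 to 18.5, with antibody library 1 nearest to the combination. Transcripts of ribosomal RNA took 3.0% to 3.40% of the antibody libraries and 1.37% to 1.61% of the combination libraries. Markers of macrophages summed to 657 to 1154 CPM with the antibody and 1249 to 3062 CPM with both agents, those of neutrophils to 186 to 249 and 311 to 430 CPM, and those of T cells to 69.1 to 133 and 117 to 209 CPM; the first 2 sums contain Apoe and S100a9, described below. Fibroblast markers summed to 745 to 840 and 648 to 948 CPM, and erythroid markers to 946 to 2175 and 866 to 1943 CPM. Markers of epithelial or carcinoma cells had 2 counts in the 3 antibody libraries and 9 in the 3 combination libraries. All 9 lay in combination library 2, and 7 of them were of Krt18. The NK marker Nkg7 and the dendritic cell marker Cd209a had none in these 6. The labels name no cell type finer than total tumour cells. In bulk tissue, a larger share of a cell type and more RNA of a gene per cell cannot be told apart, and this holds for every result below.

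With edgeR's quasi-likelihood test and Benjamini-Hochberg adjustment over all tested genes at 0.05, 163 genes were higher with the combination (2.99% of those tested) and 215 were lower (3.95%), 378 in all (6.94%). In the counts of list members below, higher and lower likewise mean called so. The groups' values did not overlap for 353 of the 378, against 27.3% of all tested genes. The 378 were chosen by their difference between these same libraries, so a low overlap is largely built into the choice. The median log2 difference was 1.39 over the higher genes and −1.53 over the lower genes, against −0.04 over all tested genes. The combination had the highest of the 4 group means for each of the 163 higher genes and the lowest for each of the 215 lower genes. The count depended on single libraries. Without combination library 1, 42 genes were higher and 52 lower. Without antibody library 3, 47 and 64 were, and without antibody library 2, 51 and 78. Without combination library 2, 108 were higher and 86 lower. Of 108 genes that the naming rule took and the test called, 26 passed under every alternative that gave them a value, 11 of them higher and 15 lower; no called gene changed sign under any. The others of the 108 lost their call in at least 1 alternative.

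**Figure D1:**
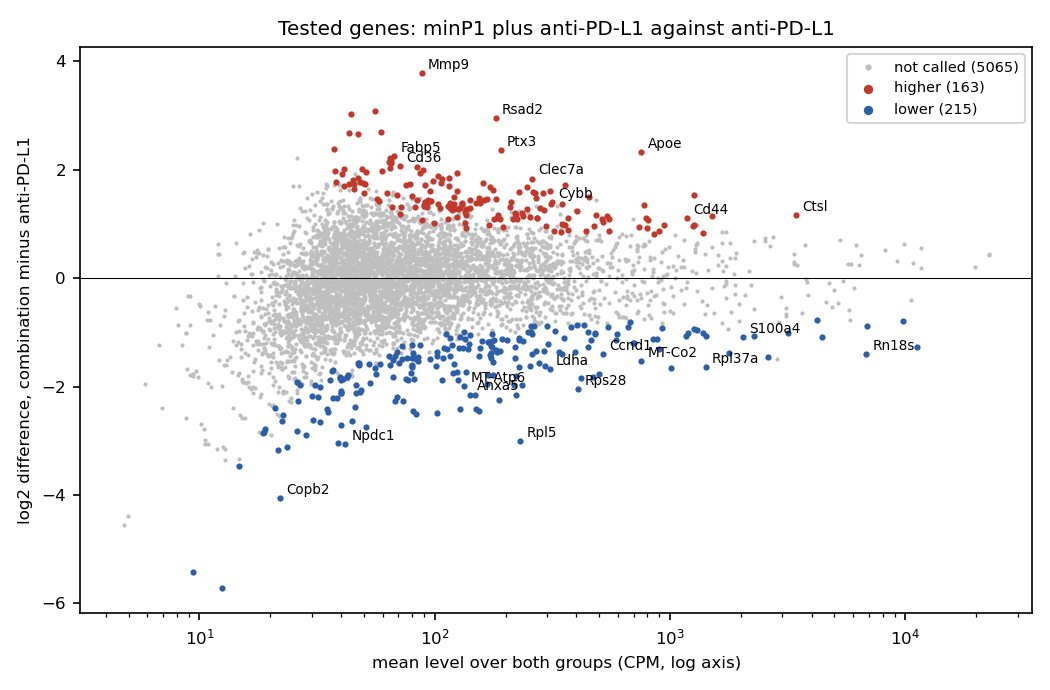
Each point is 1 of the 5443 tested genes, with its mean level over the antibody and combination groups in CPM on a log axis and its log2 difference, combination minus anti-PD-L1. Red points are the 163 called higher and blue points the 215 called lower. Called genes occur at all levels but more often at high ones. With tested genes split into 5 equal bins by mean level over the 4 groups, 11.8% of the highest bin were lower and 5.23% higher. In the lowest bin these shares were 0.92% and 1.75%. Mmp9 lies at the top and Rpl5 far below the ribosomal and mitochondrial genes of similar level.

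The gene with the largest rise was Mmp9, a gelatinase stored in neutrophil granules and made by macrophages. Its levels were 18.1, 11.1 and 6.89 CPM with the antibody alone and 230.5, 143 and 118 CPM with both agents. Every combination library lay above every antibody library, a 13.8-fold difference (log2 3.79 ± 0.53, adjusted p = 0.000365). Mmp9 was called under every alternative that gave it a value. Hdc, the enzyme that makes histamine, and S100a9, an inflammatory calcium-binding protein abundant in neutrophils, were the other 2 called among 7 tested members of the neutrophil list. Hdc read 36.3, 26.0 and 17.2 CPM with the antibody alone and 76.8, 95.5 and 135 CPM with both agents. S100a9 read 66.5, 51.9 and 44.8 CPM with the antibody alone and 188, 155 and 181 CPM with both agents (3.26-fold, adjusted p = 0.0146). The neutrophil list had a median log2 difference of 1.05, with 5 positive and 2 negative differences and no member called lower. The part of neutrophil number in these genes was not tested. The marker sum above contains S100a9, so it is no separate measure of that number. Csf3r, the receptor for granulocyte colony-stimulating factor, stood at 54.4, 48.2 and 31.0 CPM with the antibody alone and 68.3, 89.5 and 107 CPM with both agents, without overlap but short of the threshold (adjusted p = 0.105), and is given here after its values were seen. The chemokine receptor Cxcr2, another neutrophil marker, had 115, 163 and 127 CPM with the antibody alone and 119.5, 113 and 135 CPM with both agents and did not pass (adjusted p = 0.798). S100a8, the usual partner of S100a9, had 2 counts in each group and was not tested. Without antibody library 3, 1 of the list's members was still called, and without antibody library 2, combination library 1 or combination library 3, 2 were. At equal depth 1 was, and S100a9 lost its call.

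Macrophage genes were called higher for 4 of 9 tested members, with none called lower and a median log2 difference of 0.79. Apoe, the lipid carrier that macrophages secrete, had 338, 204 and 220.4 CPM with the antibody alone and 1759, 609 and 1405 CPM with both agents. Combination library 2, the lowest of its group, still lay above all 3 antibody libraries, and the difference was 4.99-fold (log2 2.32 ± 0.33, adjusted p = 0.000365). Mrc1, the mannose receptor CD206, read 181, 200.2 and 138 CPM with the antibody alone and 632, 376 and 349.8 CPM with both agents (2.59-fold). Ms4a7, a membrane protein of mature macrophages, read 90.7, 74.1 and 93.0 CPM with the antibody alone and 239, 203 and 237 CPM with both agents (2.63-fold). For each of these 3 genes the lowest combination library exceeded the highest antibody library. The complement genes C1qa and C1qb, also macrophage markers, did not follow. C1qa had 514, 367 and 214 CPM with the antibody alone and 845, 388 and 327 CPM with both agents (adjusted p = 0.389), and C1qb had 72.5, 63.0 and 68.9 CPM with the antibody alone and 102, 41.8 and 28.2 CPM with both agents (adjusted p = 0.68); the groups overlapped for both. None of 9 tested members of the inflammatory monocyte list was called, with a median of 0.10. The monocyte chemokine receptor Ccr2 read 84.6, 100.1 and 114 CPM with the antibody alone and 154, 131 and 107 CPM with both agents. The sum over 6 macrophage markers given above, Apoe among them, was higher in every combination library. The sum over the whole macrophage list overlapped, at 5670, 8982 and 9368 CPM with the antibody alone and 7505, 5538 and 8143 CPM with both agents. Its most abundant member was Spp1, which encodes osteopontin, with 4672, 8201 and 9247 CPM with the antibody alone and 3705, 4171 and 5044 CPM with both agents (adjusted p = 0.0722). The part of macrophage number in these results was not tested. Without combination library 1, 2 of the macrophage members were called, and Apoe was among the genes that passed under every alternative.

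Receptors by which phagocytes sense sugars and lipids were higher for 4 of 9 tested members of the list of C-type lectins and CD300 receptors, whose median log2 difference was 1.23. Clec7a, which encodes Dectin-1, the receptor for fungal beta-glucan, read 115, 92.7 and 127 CPM with the antibody alone and 649, 328 and 248 CPM with both agents, and all 3 combination libraries were higher (3.57-fold, log2 1.84 ± 0.32, adjusted p = 0.00277). Cd300a, an inhibitory receptor that binds phosphatidylserine and phosphatidylethanolamine on dying cells, read 12.1, 7.41 and 17.2 CPM with the antibody alone and 102, 65.6 and 79.0 CPM with both agents (6.35-fold). Clec10a, a galactose-type lectin of macrophages and dendritic cells, read 54.4, 18.5 and 3.44 CPM with the antibody alone and 205, 53.7 and 56.4 CPM with both agents; combination libraries 2 and 3 stood about level with antibody library 1, and the groups overlapped (adjusted p = 0.0489). The fourth was Mrc1, described above. Clec10a and Bst2, described with the interferon genes, were the 2 higher of 5 tested dendritic cell genes. Cd302, a further lectin-like receptor that was among the largest rises, read 12.1, 3.71 and 27.6 CPM with the antibody alone and 171, 95.5 and 45.1 CPM with both agents. Fcgr4, an activating receptor for antibody Fc parts, read 157, 129.8 and 75.8 CPM with the antibody alone and 350.0, 334 and 203 CPM with both agents (2.48-fold) and was the only called member of 5 Fc receptor genes tested. Cybb, the catalytic subunit of the phagocyte oxidase, read 181, 189 and 148 CPM with the antibody alone and 572, 364 and 440.1 CPM with both agents (2.64-fold, adjusted p = 0.00332) and was the only called member of 4 of that complex. Clec7a and Cybb passed under every alternative that gave them a value. Without combination library 1, 1 member of the lectin list was called, and without antibody library 2 or 3 or at equal depth, 2 were; Fcgr4 was not called without antibody library 2 or 3 or without combination library 1 or 2.

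**Figure D2:**
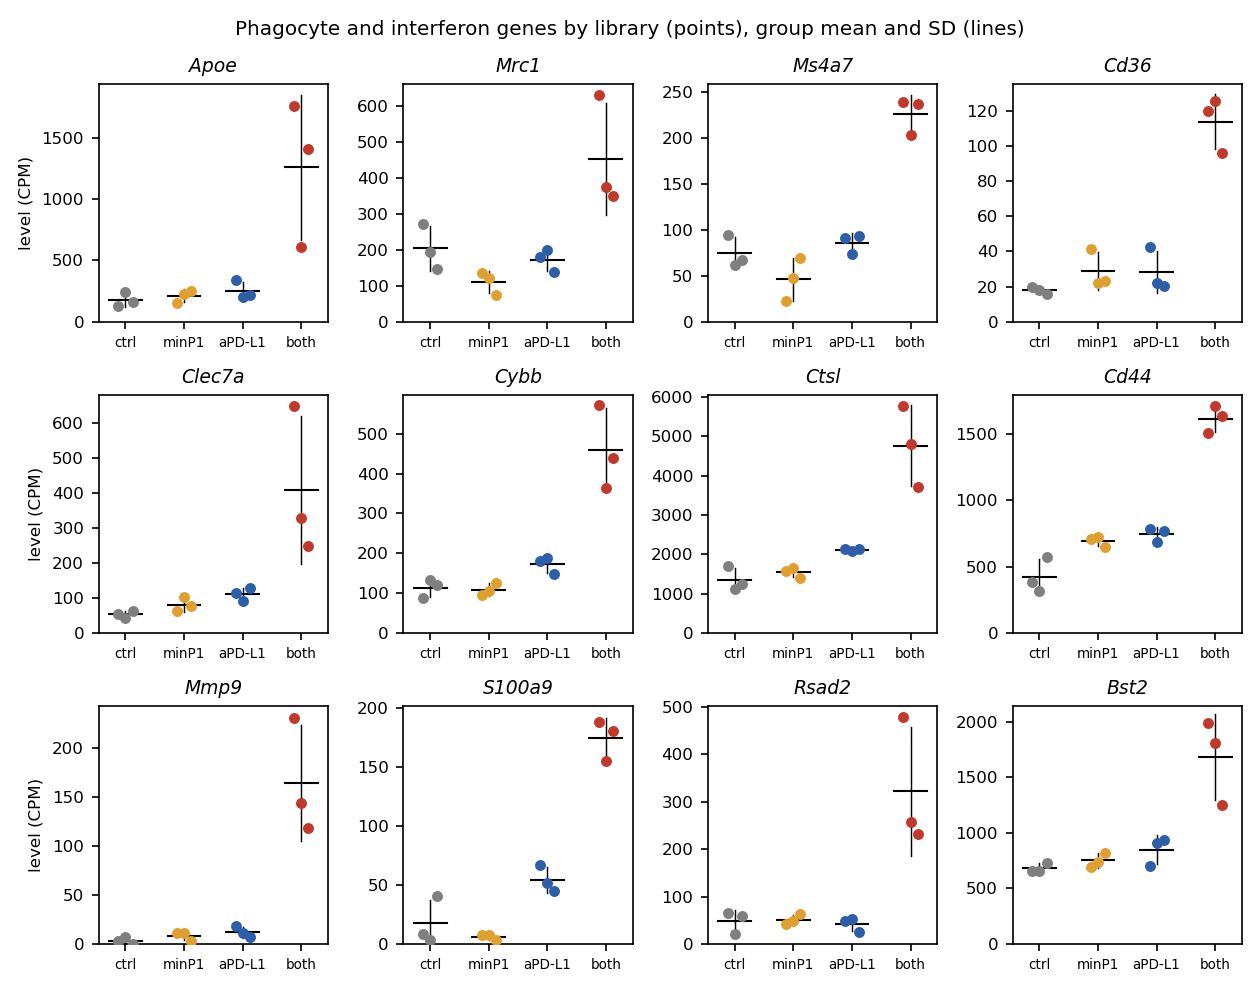
Levels in CPM (vertical axes, linear from 0) of 12 called genes in the 12 libraries, by group: control, minP1, anti-PD-L1 (aPD-L1) and both agents. Points are libraries, horizontal lines group means and vertical lines SD of 3 mice; for each gene all 3 red points lie above every other point, and the combination libraries of Cd44 span 1502 to 1707 CPM.

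Lysosomal genes were higher for 4 of 35 tested members and lower for 1, with a median of 0.30. Ctsl, a cysteine protease of the lysosome, had 2146, 2084 and 2125 CPM with the antibody alone and 5771, 4816 and 3701 CPM with both agents. The 3 antibody libraries were nearly equal and all combination libraries lay above them (2.25-fold, log2 1.17 ± 0.23, adjusted p = 0.00468). Ctsb, another cathepsin, read 931, 919 and 685 CPM with the antibody alone and 2143, 1367 and 1467 CPM with both agents. Lgmn, the asparagine-specific protease legumain, read 519.8, 564 and 427 CPM with the antibody alone and 1238, 913 and 1095 CPM with both agents (2.15-fold). Atp6v1b2, a subunit of the proton pump that acidifies lysosomes, read 248, 163 and 172 CPM with the antibody alone and 657, 394 and 446 CPM with both agents (2.58-fold). The lower member was the tetraspanin Cd63, with 30.2, 100.1 and 103 CPM with the antibody alone and 0, 5.97 and 28.2 CPM with both agents. Without antibody library 3 or combination library 1, 2 lysosomal members were called higher, and Ctsl and Atp6v1b2 passed under every alternative.

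Genes that take up, bind or export lipid were higher for 5 of 26 tested members of the lipid list. Cd36, a scavenger receptor for oxidised lipoproteins and fatty acids, read 42.3, 22.2 and 20.7 CPM with the antibody alone and 119.5, 125 and 95.9 CPM with both agents (4.18-fold, adjusted p = 0.00521). Fabp5, a fatty acid carrier of the cytosol, read 18.1, 26.0 and 24.1 CPM with the antibody alone and 111, 95.5 and 129.8 CPM with both agents (4.75-fold, adjusted p = 0.00468). The groups did not overlap for either gene, and both passed under every alternative that gave them a value. Abca1, which exports cholesterol from cells, read 18.1, 26.0 and 20.7 CPM with the antibody alone and 76.8, 41.8 and 90.3 CPM with both agents. Pla2g7, an enzyme that inactivates platelet-activating factor, read 206, 252 and 310.0 CPM with the antibody alone and 487, 358 and 598 CPM with both agents. Apoe was the fifth. The only lower member was Hmgcs1, an early enzyme of sterol synthesis, with 60.4, 51.9 and 44.8 CPM with the antibody alone and 17.1, 11.9 and 5.64 CPM with both agents. A pair of further sterol enzymes was among the largest falls. Fdft1, squalene synthase, read 36.3, 44.5 and 68.9 CPM with the antibody alone and 8.54, 5.97 and 5.64 CPM with both agents. Fdps, farnesyl diphosphate synthase, read 24.2, 29.7 and 44.8 CPM with the antibody alone and 8.54, 0 and 5.64 CPM with both agents. The combination libraries held 3 counts of Fdft1 and 2 of Fdps in total, which gives antibody-to-combination ratios of 8.02 (95% exact counting interval 2.55 to 40.6) and 7.92 (1.97 to 69.0). A list of the 19 sterol synthesis enzymes was therefore drawn up after these values were seen: 11 were tested, all 11 had a negative log2 difference, the median was −0.70, and only those 3 were called. None of the 3 sterol calls held in every alternative; Hmgcs1 was lost without any one of the 6 libraries, and Fdft1 and Fdps without any one but antibody library 1. Left-out libraries gave 3 to 5 higher members of the lipid list, and equal depth or no filter on low counts gave 3.

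Interferon genes split. Of 15 tested members of the type I interferon list, 3 were higher and 12 did not pass, with a median of 0.05, close to that of all genes. The 3 were Rsad2, which encodes the antiviral enzyme viperin, Bst2, the virus-tethering protein tetherin, and Ifi44. Over the 15 tested members, 8 differences were positive and 7 negative. The 25 untested members of that list had 192 counts over the antibody libraries and 131 over the smaller combination libraries. Some of the higher genes carry the core of an interferon-stimulated response element, here 2 copies of GAAA separated by any 2 bases, on either strand, in the window from 250 bases before to 50 bases after the annotated start. The windows below are shown to place that core in 2 higher genes of the type I interferon list and 2 higher genes not on that list. Whether those 2 respond to interferon was not tested. Sequences are from RefSeq, build GRCm38.p6, written 5′ to 3′ on the gene's strand, and capitals mark the core or its reverse complement.
Rsad2, chr12:26456538-26456597, minus strand: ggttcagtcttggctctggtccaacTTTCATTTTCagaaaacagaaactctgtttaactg
Bst2, chr8:71537562-71537627, minus strand: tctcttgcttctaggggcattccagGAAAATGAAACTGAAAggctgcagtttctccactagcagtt
AI607873, chr1:173741816-173741875, minus strand: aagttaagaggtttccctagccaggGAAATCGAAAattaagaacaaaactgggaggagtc
Fcgr4, chr1:171018828-171018887, plus strand: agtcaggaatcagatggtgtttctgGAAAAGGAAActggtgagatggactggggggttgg
The core begins 120 bases before the start of Rsad2, 130 before that of Bst2, 41 before that of AI607873 and 73 before that of Fcgr4; in Bst2 the capitals cover 2 overlapping copies. Of the higher genes with a RefSeq window, 8 of 131 (6.11%) held the core, against 7 of 145 lower genes (4.83%), 155 of 4262 tested genes (3.64%), 943 of all 27025 windows (3.49%) and 7 of 10 type I interferon genes with a window. A match describes letters in a window and is neither a shown binding site nor a cause.

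Rsad2 had 48.4, 51.9 and 24.1 CPM with the antibody alone and 478, 257 and 231 CPM with both agents, a 7.73-fold difference (log2 2.95 ± 0.39, adjusted p = 0.000365), and passed under every alternative. Its control and minP1 libraries read 65.8, 21.9 and 58.2 and 41.4, 47.6 and 62.6 CPM, so the combination stood apart from all 9 other libraries. Bst2 had 701, 905 and 940.2 CPM with the antibody alone and 1989, 1808 and 1253 CPM with both agents (1.97-fold, adjusted p = 0.0107). Ifi44 had 175, 145 and 96.4 CPM with the antibody alone and 239, 376 and 254 CPM with both agents (2.14-fold, adjusted p = 0.0409). AI607873, a symbol whose function is not stated here, rose from 0, 14.8 and 10.3 to 59.8, 101 and 79.0 CPM (8.20-fold) and passed under every alternative that gave it a value. Other classical targets gave no call, and were picked for naming after their values were seen. Isg15, a ubiquitin-like interferon product, had 54.4, 63.0 and 24.1 CPM with the antibody alone and 51.2, 47.7 and 45.1 CPM with both agents, and the groups overlapped. Ifit1, which binds foreign RNA, had 36.3, 26.0 and 13.8 CPM with the antibody alone and 42.7, 47.7 and 56.4 CPM with both agents without overlap (adjusted p = 0.287). None of 12 tested genes of the interferon gamma list was called, with a median of −0.02, and its chemokine Cxcl10 had 66.5, 196 and 134 CPM with the antibody alone and 128, 185 and 141 CPM with both agents. The 10 untested members of that list had 85 counts over the antibody libraries and 36 over the smaller combination libraries. Ifng itself had no count in the 6 libraries. Without combination library 1 only Rsad2 remained called among the 3, and Ifi44 was also lost without antibody library 2 or 3 and combination library 2.

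Among cytokine, chemokine and NF-kB genes, the tumour necrosis factor gene Tnf and Ptx3, a secreted pattern-recognition pentraxin, were the 2 higher of 14 tested members of the TLR and NF-kB list. Ptx3 read 109, 70.4 and 13.8 CPM with the antibody alone and 580.5, 161 and 209 CPM with both agents; antibody library 1 was the highest of its group and still below combination library 2 (5.12-fold, adjusted p = 0.00638). Tnf read 30.2, 18.5 and 10.3 CPM with the antibody alone and 119.5, 47.7 and 67.7 CPM with both agents (4.05-fold, adjusted p = 0.039). The lower member was Tnfaip3, which encodes A20, a brake on NF-kB, with 302, 323 and 320.3 CPM with the antibody alone and 59.8, 77.6 and 237 CPM with both agents; combination library 3 lay far above the rest of its group. Of 14 chemokines, 3 were higher: Cxcl5 (30.2, 29.7 and 10.3 CPM with the antibody alone and 162, 47.7 and 102 CPM with both agents) and Cxcl1 (326, 263 and 427 CPM with the antibody alone and 1007, 483 and 609 CPM with both agents), which both attract neutrophils through Cxcr2, and Ccl9 (42.3, 77.9 and 117 CPM with the antibody alone and 324, 137 and 203 CPM with both agents), a myeloid chemokine. Ccl2, which recruits monocytes, read 54.4, 115 and 79.2 CPM with the antibody alone and 162, 83.5 and 135 CPM with both agents and did not pass (adjusted p = 0.341). Tnfaip6, a secreted hyaluronan-binding protein induced by TNF and IL-1, read 18.1, 29.7 and 17.2 CPM with the antibody alone and 162, 59.7 and 102 CPM with both agents (4.68-fold). Il1rn and Inhba were the higher genes among 24 cytokines, growth factors and receptors. Il1rn, the antagonist of the IL-1 receptor, read 24.2, 18.5 and 17.2 CPM with the antibody alone and 68.3, 89.5 and 50.8 CPM with both agents. Inhba, a subunit of activin, read 54.4, 44.5 and 27.6 CPM with the antibody alone and 222, 107 and 90.3 CPM with both agents. Il1b, the cytokine that Il1rn opposes, read 30.2, 26.0 and 20.7 CPM with the antibody alone and 34.1, 29.8 and 39.5 CPM with both agents (adjusted p = 0.664). Tnf was lost without any one of the libraries except antibody library 1, Tnfaip3 without any one except combination library 3 and with library totals in place of TMM factors, and Ptx3 without combination library 1. With limma voom, at equal depth or in a fit of the 6 libraries alone, 1 member of the TLR and NF-kB list was called higher. Without antibody library 2 or combination library 1 no chemokine was called, and without antibody library 3 a single one was.

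Genes of matrix turnover, clotting and metal handling gave scattered calls. Mmp12, the macrophage elastase, read 218, 89.0 and 127 CPM with the antibody alone and 469.5, 328 and 384 CPM with both agents (2.79-fold) and was with Mmp9 one of the 2 higher of 16 proteases and inhibitors tested. The 2 lower were Timp2, a metalloproteinase inhibitor (54.4, 185 and 220.4 CPM with the antibody alone and 34.1, 41.8 and 73.3 CPM with both agents), and Adamts13, which cleaves von Willebrand factor (308, 356 and 362 CPM with the antibody alone and 162, 119 and 231 CPM with both agents). Timp2 overlapped between groups, since antibody library 1 read below combination library 3. Serpinb2, an inhibitor of plasminogen activators, read 6.04, 0 and 24.1 CPM with the antibody alone and 137, 47.7 and 45.1 CPM with both agents. Plaur, the urokinase receptor, read 248, 182 and 265 CPM with the antibody alone and 623, 364 and 525 CPM with both agents; these were the 2 higher of 17 complement and coagulation genes. Cd44, the hyaluronan receptor, read 786, 686 and 765 CPM with the antibody alone and 1502, 1707 and 1631 CPM with both agents (2.17-fold, adjusted p = 0.00535), passed under every alternative, and was the only called member of 12 integrin and adhesion genes. Hmox1, which degrades haem, read 115, 167 and 65.4 CPM with the antibody alone and 316, 239 and 367 CPM with both agents (2.66-fold) and was the only called member of 8 metal-handling genes. Arg2, the mitochondrial arginase, read 60.4, 18.5 and 31.0 CPM with the antibody alone and 213, 89.5 and 107 CPM with both agents (3.84-fold), while Arg1, the cytosolic arginase of myeloid cells, read 145, 208 and 217 CPM with the antibody alone and 256, 149 and 254 CPM with both agents and did not pass (adjusted p = 0.749). Azin1, a regulator of polyamine synthesis, and Cd84, a SLAM-family receptor, were the other 2 called, both higher, of 11 genes of arginine use and immunosuppressive myeloid cells. Azin1 read 242, 229.9 and 210.1 CPM with the antibody alone and 376, 406 and 457 CPM with both agents. Cd84 read 12.1, 7.41 and 24.1 CPM with the antibody alone and 68.3, 41.8 and 73.3 CPM with both agents. No gene of that list was called without antibody library 2 or 3 or combination library 1, and 1 was with no filter on low counts. With limma voom 1 protease or inhibitor was lower. Mmp12, Arg2, Timp2 and Adamts13 were each lost without antibody library 2, antibody library 3 or combination library 1. Timp2 and Adamts13 were also lost without combination library 2. Serpinb2 and Plaur were lost without antibody library 2 or combination library 1, and Hmox1 without antibody library 3.

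Lymphocyte genes were scarce. The checkpoint receptor Ctla4, carried by activated and regulatory T cells, read 60.4, 48.2 and 34.4 CPM with the antibody alone and 162, 101 and 164 CPM with both agents (3.04-fold, log2 1.60 ± 0.48, adjusted p = 0.0399); all 3 combination libraries were higher, but the call was lost at equal depth and without any one library except antibody library 1. It was 1 of only 2 testable genes of the checkpoint list. None of the testable pan-T (1 gene), CD8 and cytotoxic (2 genes) or B cell (1 gene) members was called, and no NK gene had enough counts to test. Cd8a had 0 counts over the antibody libraries and 1 over the combination libraries, Gzmb 7 and 1, Pdcd1, which encodes PD-1, 2 and 0, and Cd274, which encodes PD-L1, 8 and 9. These counts are too few for a test at this depth. The peptide's reported receptor Tlr4 had 13 and 5 counts, and Il12b, a dendritic cell cytokine, 2 and 1. Hmgn1, the gene from which the peptide derives, read 955, 601 and 619.9 CPM with the antibody alone and 973, 1086 and 677 CPM with both agents, with overlapping groups (adjusted p = 0.432). Of 18 tested MHC class I presentation genes only H2-T23, a non-classical class I molecule with close relatives in the genome, was called, and it was lower (78.6, 129.8 and 145 CPM with the antibody alone and 42.7, 29.8 and 56.4 CPM with both agents); none of 6 MHC class II genes was. The sum over the class I list was higher in every combination library, at 13973, 12422 and 12295 CPM with the antibody alone and 19042, 16389 and 16790.3 CPM with both agents. Its most abundant members were H2-K1, a classical class I heavy chain, and B2m, the light chain. H2-K1 read 5011, 3599.8 and 3389 CPM with the antibody alone and 7691, 6738 and 5151 CPM with both agents (adjusted p = 0.0811), and B2m read 3784, 2409.8 and 2648 CPM with the antibody alone and 5617, 4094 and 3842 CPM with both agents (adjusted p = 0.142); neither passed, and the groups did not overlap for either. Cd74, the class II invariant chain, read 139, 229.9 and 320.3 CPM with the antibody alone and 333, 161 and 384 CPM with both agents.

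Cd24a, a small surface glycoprotein of immature myeloid, lymphoid and epithelial cells, had the largest rise after Mmp9. It read 6.04, 18.5 and 6.89 CPM with the antibody alone and 162, 89.5 and 50.8 CPM with both agents (8.52-fold, adjusted p = 0.00492) and was lost without combination library 1. Atg2a, a lipid-transfer protein of autophagosome formation, read 30.2, 11.1 and 31.0 CPM with the antibody alone and 145, 83.5 and 90.3 CPM with both agents. Bhlhe40, a transcription factor of activated myeloid and T cells, read 931, 1027 and 854 CPM with the antibody alone and 2373, 1844 and 1986 CPM with both agents (2.2-fold) and was lost without antibody library 3. Mdm2, Fas and Gadd45a, known as targets of the transcription factor p53, were also higher, and a list of 22 such targets was drawn up after that was seen. Mdm2, the p53 ubiquitin ligase, read 121, 115 and 158 CPM with the antibody alone and 606, 203 and 401 CPM with both agents. Fas, the death receptor, read 60.4, 51.9 and 34.4 CPM with the antibody alone and 162, 185 and 141 CPM with both agents (3.40-fold). Gadd45a, a stress-response gene, read 30.2, 77.9 and 86.1 CPM with the antibody alone and 196, 161 and 175 CPM with both agents. Of the 12 tested, 6 had a positive and 6 a negative log2 difference, and Cdkn1a, the best-known target, read 133, 108 and 162 CPM with the antibody alone and 137, 131 and 129.8 CPM with both agents. The median of the list was 0.17. Gadd45a was lost without any one of the 6 libraries.

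The largest group of lower genes encodes the proteins of the cytosolic ribosome. Of 84 tested, 37 were lower and none higher, with a median log2 difference of −0.74. Transcripts of ribosomal proteins typically start with a cytosine inside a pyrimidine tract, the 5′ terminal oligopyrimidine motif by which their translation is regulated. The windows from 20 bases before to 20 bases after the annotated start are shown for 2 called and 2 uncalled genes. Each was picked because it holds a tract, so the windows show its place and do not compare called with uncalled genes. Rps23 (log2 −2.41), also called lower, held a short tract and is not printed, so tract lengths are no comparison either. The capitals mark a cytosine followed by at least 5 pyrimidines that begins within 5 bases of the start. They are from RefSeq, build GRCm38.p6, on the gene's strand.
Rpl7a, chr2:26910787-26910826, plus strand, called lower: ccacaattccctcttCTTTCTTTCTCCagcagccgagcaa
Rpl35, chr2:39005112-39005151, minus strand, called lower: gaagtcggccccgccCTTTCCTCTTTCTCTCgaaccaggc
Rps2, chr17:24720043-24720082, plus strand, not called: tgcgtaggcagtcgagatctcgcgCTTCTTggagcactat
Rps26, chr10:128626487-128626526, minus strand, not called: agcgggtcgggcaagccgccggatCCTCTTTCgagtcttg
Such a tract stood at 14 of 29 called ribosomal protein genes with a window (48.3%), at 13 of 34 uncalled ones (38.2%) and at 11.3% of all tested genes. Annotated starts can lie beside the start in use, so a missing tract says only that these letters are not in this window.

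Rpl5, which binds 5S ribosomal RNA, had the largest fall of the family. It read 151, 493 and 582 CPM with the antibody alone and 51.2, 35.8 and 67.7 CPM with both agents; all 3 combination libraries were below every antibody library (7.99-fold lower, log2 −3.0 ± 0.51, adjusted p = 0.00252). Rps28, a protein of the small subunit, read 393, 730.3 and 847 CPM with the antibody alone and 154, 137 and 186 CPM with both agents (4.14-fold lower, adjusted p = 0.000365). Rpl37a read 1329.7, 2647 and 2473 CPM with the antibody alone and 512, 788 and 767 CPM with both agents. Rpl23a, which lies at the exit of the nascent chain, read 199, 426 and 492 CPM with the antibody alone and 76.8, 125 and 84.6 CPM with both agents. These 4 genes were called lower under every alternative that gave them a value. Antibody library 1 was the lowest of its group for each of the 4, and over all 215 lower genes it was so in 171. Of the 28 members with the highest levels, 10 had positive differences, none of them called; 3 are given here after their values were seen. Rplp0, a protein of the ribosomal stalk, read 10964, 5324 and 7101 CPM with the antibody alone and 14811, 12711 and 8548 CPM with both agents. Rpl32 read 11514, 7374 and 9439.8 CPM with the antibody alone and 13932, 16704 and 10991 CPM with both agents; their log2 differences of 0.63 ± 0.29 and 0.56 ± 0.26 did not pass (adjusted p = 0.198 and 0.189). Rps2, shown above, read 8135, 5791 and 6147 CPM with the antibody alone and 11004, 11339 and 6545 CPM with both agents (adjusted p = 0.217).

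By mean level over the 4 groups, 19 of the 28 members in the lowest of 3 equal bins of the family were lower (median −1.34), 11 of 28 in the middle bin (median −0.66) and 7 of 28 in the highest bin (median −0.38). Other genes in the same 3 ranges of level were lower in 7.15%, 10.5% and 22.2% of cases. The family's summed share of counts was 18.1% to 19.6% with the antibody and 15.3% to 18.8% with both agents, so the groups overlapped in part. Ribosomal protein genes have many processed pseudogenes that share their sequence, and 8 symbols of that kind were also called lower. The number of such symbols tested is not given here, so no share stands beside that count. How reads matching several copies were counted is not given in the sources used here, so single members are uncertain. Without combination library 1, 18 members were called, without antibody library 3, 19, without antibody library 2, 22, and without combination library 2, 23.

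**Figure D3:**
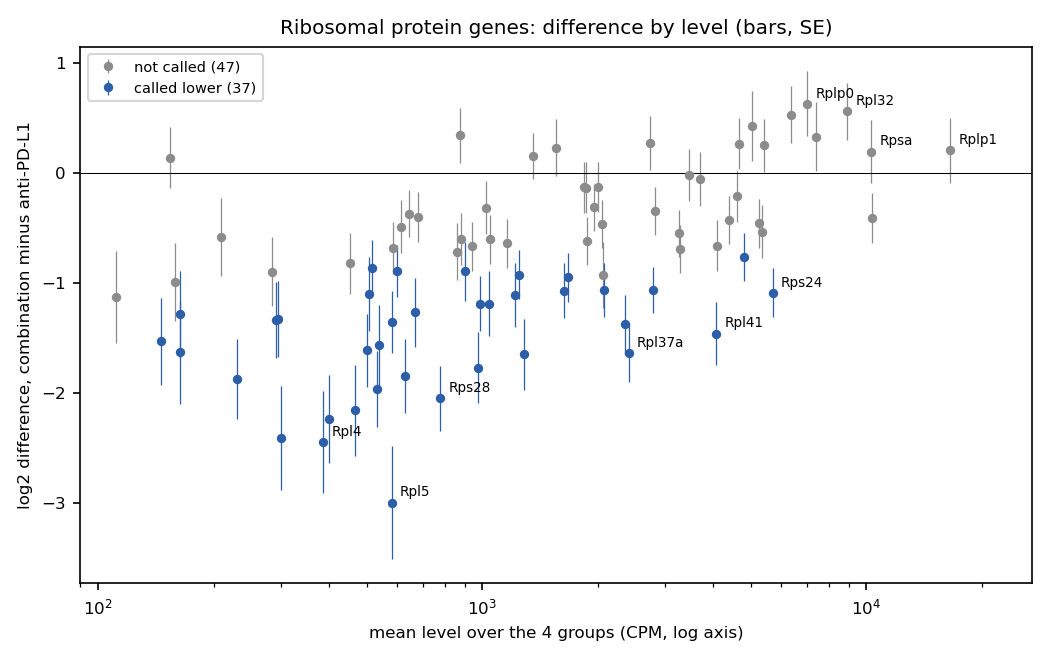
Log2 difference, combination minus anti-PD-L1, of the 84 tested ribosomal protein genes (vertical axis, bars are SE) against their mean level over the 4 groups in CPM on a log axis. The 37 called genes (blue) concentrate at lower levels, Rpl5 is the lowest at −3.0, and Rpl32 and Rplp0 at the right lie above 0 without being called (grey).

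Some other genes of ribosome production were also lower. The ribosomal RNA transcripts Rn18s and Rn45s read 9169, 10651 and 9812 against 3338, 3789.5 and 4046 CPM and 15842, 17006 and 14778 against 5805, 6779 and 7228 CPM (2.65-fold and 2.40-fold lower, adjusted p = 0.00288 and 0.00288), and both passed under every alternative. The libraries were made from polyadenylated RNA, and the carry-over of ribosomal RNA and its level in cells cannot be told apart. Npm1 and Ncl are abundant proteins of the nucleolus. Npm1 read 1366, 1735 and 1698 CPM with the antibody alone and 717, 883 and 779 CPM with both agents. Ncl read 1638, 1720.2 and 1639 CPM with the antibody alone and 811, 835 and 954 CPM with both agents. In a list of 26 nucleolar and ribosome-assembly genes drawn up after these values were seen, 22 were tested, 6 were lower (Fbl, Nop56, Ncl, Npm1, Bms1 and Nol12), none was higher and the median was −0.36. Of 53 translation factors 2 were lower and 1 higher, and the lower share is close to the 3.95% over all tested genes. The other alternatives gave 1 to 5 lower factors, and left-out libraries 0 to 3. Eef1g, a subunit of the elongation factor that reloads eEF1A, read 133, 133 and 214 CPM with the antibody alone and 59.8, 83.5 and 50.8 CPM with both agents. Tpt1, a growth-related protein, read 6491, 10132 and 10053 CPM with the antibody alone and 3611, 5813 and 5033 CPM with both agents. Eif4a2, an RNA helicase of initiation, was the higher one, with 290.1, 297 and 310.0 CPM with the antibody alone and 683, 585 and 745 CPM with both agents. Eef1g was lost with limma voom and without antibody library 3 or combination library 1 or 3, Tpt1 without antibody library 2 or 3 or combination library 1, and Eif4a2 without antibody library 2. Of 50 tested mitochondrial ribosomal protein genes, a list also added afterwards, only Mrpl33 was lower and none higher, a share below that of all tested genes, with a median of −0.42.

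Some genes of energy metabolism were lower, among them genes of both the mitochondrial and the nuclear genome. Of 11 tested transcripts encoded by mitochondrial DNA, 5 were lower and none higher, with a median of −1.39. MT-Co2, a subunit of cytochrome oxidase, read 961, 989.9 and 1415 CPM with the antibody alone and 333, 442 and 384 CPM with both agents (2.90-fold lower, log2 −1.53 ± 0.26, adjusted p = 0.00209). MT-Atp6, a subunit of ATP synthase, read 145, 208 and 286 CPM with the antibody alone and 51.2, 53.7 and 56.4 CPM with both agents. MT-Cytb, of complex III, read 357, 274 and 489 CPM with the antibody alone and 171, 119 and 141 CPM with both agents. MT-Nd4, of complex I, read 229.7, 222 and 231 CPM with the antibody alone and 59.8, 95.5 and 90.3 CPM with both agents. MT-Nd1, also of complex I, was the fifth, with 48.4, 96.4 and 196 CPM with the antibody alone and 8.54, 35.8 and 28.2 CPM with both agents. The groups did not overlap for any of these 5. MT-Co1, the catalytic subunit of cytochrome oxidase, did not pass (320.3, 323 and 368 CPM with the antibody alone and 316, 286 and 158 CPM with both agents, adjusted p = 0.365). The summed share of mitochondrial messenger RNA overlapped between the groups, at 0.542% to 0.802% with the antibody and 0.512% to 0.907% with both; combination libraries 1 and 2 were above every antibody library and combination library 3 was below them. Most of it was MT-Co3, another subunit of cytochrome oxidase, which read 6630.5, 3396 and 4549 CPM with the antibody alone and 8921, 9322 and 4068 CPM with both agents and did not pass (adjusted p = 0.311). MT-Co2, MT-Atp6 and MT-Nd4 passed under every alternative, and when antibody library 3 was left out, the list had 3 called members.

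Of 72 tested nuclear genes of the respiratory chain, 11 were lower and none higher, with a median of −0.58. Atp5h, a stalk subunit of ATP synthase, read 54.4, 81.6 and 127 CPM with the antibody alone and 25.6, 5.97 and 11.3 CPM with both agents (6.74-fold lower, adjusted p = 0.0053). Uqcrh, the hinge protein of complex III, read 302, 475 and 479 CPM with the antibody alone and 137, 179 and 181 CPM with both agents and passed under every alternative. Cox7c, a small subunit of cytochrome oxidase, read 145, 304 and 348 CPM with the antibody alone and 42.7, 101 and 124 CPM with both agents. Cox7a2, another, read 151, 285 and 396 CPM with the antibody alone and 17.1, 83.5 and 129.8 CPM with both agents. Glycolysis was lower for 5 of 16 tested members, none was higher, and the median was −0.68. Ldha, lactate dehydrogenase, read 320.3, 534 and 551 CPM with the antibody alone and 137, 113 and 192 CPM with both agents (3.18-fold lower, adjusted p = 0.00764). Pgk1, phosphoglycerate kinase, read 1015, 1301 and 1167 CPM with the antibody alone and 427, 501 and 666 CPM with both agents. Pkm, pyruvate kinase, read 326, 400.4 and 448 CPM with the antibody alone and 59.8, 155 and 231 CPM with both agents. Tpi1, triosephosphate isomerase, read 163, 334 and 293 CPM with the antibody alone and 111, 95.5 and 158 CPM with both agents. Aldoa, aldolase, read 72.5, 119 and 99.9 CPM with the antibody alone and 25.6, 29.8 and 39.5 CPM with both agents. Gapdh was lower in every combination library (121, 141 and 186 CPM with the antibody alone and 68.3, 107 and 50.8 CPM with both agents) without passing (adjusted p = 0.0916) and is named after its values were seen. The hypoxia list outside glycolysis had 1 higher member of 14, Bhlhe40. Without antibody library 3 or combination library 1, 2 nuclear respiratory genes were called, 4 without antibody library 2, 5 without combination library 2 or with limma voom, and 7 at equal depth. No glycolysis gene was called without combination library 1 or 2, 1 without antibody library 2 and 2 without antibody library 3.

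Structural and redox genes formed the next group of lower genes. Anxa5, which binds phosphatidylserine, read 151, 297 and 241 CPM with the antibody alone and 68.3, 41.8 and 50.8 CPM with both agents (4.43-fold lower, log2 −2.15 ± 0.41, adjusted p = 0.00468) and passed under every alternative. S100a4 read 2279, 2777 and 3296 CPM with the antibody alone and 1041, 1373 and 1518 CPM with both agents. S100a6 read 13182, 11978 and 12098 CPM with the antibody alone and 5984, 8349 and 7177 CPM with both agents. S100a11 read 242, 534 and 492 CPM with the antibody alone and 145, 155 and 248 CPM with both agents; all 3 are small calcium-binding proteins tied to motility. Together with Anxa5 they were 4 lower of 13 S100 and annexin genes, against S100a9 as the only higher one, and the list's median was −0.79. Of 36 cytoskeleton genes, 5 were lower and none higher, with a median of −0.48. Cfl1, which severs actin filaments, read 42.3, 163 and 127 CPM with the antibody alone and 25.6, 23.9 and 22.6 CPM with both agents. Tmsb4x, which holds actin monomers, read 139, 426 and 396 CPM with the antibody alone and 111, 95.5 and 147 CPM with both agents. Tuba1a, a tubulin, read 36.3, 92.7 and 107 CPM with the antibody alone and 17.1, 11.9 and 28.2 CPM with both agents. Vim, the intermediate filament of mesenchymal cells and leukocytes, read 665, 1579 and 1598 CPM with the antibody alone and 359, 471 and 722 CPM with both agents, and the fifth was talin, Tln1. Antibody library 1 was far below the other antibody libraries for Tmsb4x, Vim and Cfl1. Among 15 antioxidant genes Sod1 (175, 219 and 238 CPM with the antibody alone and 42.7, 29.8 and 113 CPM with both agents), Prdx2 (302, 356 and 327 CPM with the antibody alone and 145, 95.5 and 197 CPM with both agents) and Txn1 (206, 274 and 276 CPM with the antibody alone and 51.2, 65.6 and 164 CPM with both agents) were lower, while Txnrd1, which recharges thioredoxin, was higher (48.4, 66.7 and 72.3 CPM with the antibody alone and 179, 101 and 226 CPM with both agents). No cytoskeleton gene was called without antibody library 2 or 3 or without combination library 1 or 2, 1 was with limma voom and 3 were at equal depth. No antioxidant gene was called lower without combination library 1 or 2, and 1 was without antibody library 2 or 3. Of the S100 and annexin genes, 1 was called lower without antibody library 3 or combination library 1 and 2 without antibody library 2 or combination library 2.

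Genes of proliferation were lower for 4 of 45 tested members, none was higher, and the median was −0.39. Ccnd1, the cyclin of G1, read 604, 897 and 761 CPM with the antibody alone and 248, 310.3 and 299 CPM with both agents (2.63-fold lower, log2 −1.40 ± 0.25, adjusted p = 0.00288) and passed under every alternative. Top2a, the topoisomerase of dividing cells, read 447, 519 and 320.3 CPM with the antibody alone and 196, 275 and 181 CPM with both agents. Hmgb2, a chromatin protein of proliferating cells, read 393, 500.5 and 589 CPM with the antibody alone and 222, 286 and 288 CPM with both agents. Smc4, a condensin subunit, read 357, 285 and 351 CPM with the antibody alone and 188, 179 and 175 CPM with both agents. The groups did not overlap for these 4, but left-out libraries gave 1 or 2 called members. Of 25 immediate early genes, Fos (284, 311 and 248 CPM with the antibody alone and 119.5, 107 and 152 CPM with both agents) and Jun (326, 400.4 and 324 CPM with the antibody alone and 85.4, 191 and 226 CPM with both agents), the components of AP-1, were lower and Gadd45a was higher; neither Fos nor Jun was called without antibody library 2 or combination library 1 or 2, and Jun was also lost with library totals in place of TMM factors. The other alternatives gave 1 to 6 lower immediate early genes. Of 19 fibroblast and matrix genes, 4 were lower, among them the matrix glycoprotein Sparc (84.6, 297 and 279 CPM with the antibody alone and 76.8, 71.6 and 124 CPM with both agents) and the collagen chaperone Serpinh1 (66.5, 100.1 and 110.2 CPM with the antibody alone and 42.7, 35.8 and 28.2 CPM with both agents). Fbn1, which encodes fibrillin, was the higher one (109, 70.4 and 65.4 CPM with the antibody alone and 461, 233 and 95.9 CPM with both agents). No fibroblast gene was called lower without antibody library 3 or combination library 1, 1 was without antibody library 2 or combination library 2, and 2 were with limma voom. Among stress genes, Hspa1b, an inducible chaperone with a near-identical neighbour, read 133, 371 and 227 CPM with the antibody alone and 25.6, 65.6 and 67.7 CPM with both agents. Pdia3, a folding enzyme of the endoplasmic reticulum, read 550.0, 738 and 630.2 CPM with the antibody alone and 205, 251 and 406 CPM with both agents. Of 64 splicing and RNA-processing genes, Ddx5, an RNA helicase (701, 564 and 592 CPM with the antibody alone and 1101, 1050.3 and 1117 CPM with both agents), and Srsf2, a splicing factor (804, 575 and 534 CPM with the antibody alone and 1221, 1307 and 965 CPM with both agents), were higher and Nono, an RNA-binding protein of paraspeckles, was lower. The higher share is close to the 2.99% over all tested genes, and the lower share is below the 3.95%. With no filter on low counts neither Ddx5 nor Srsf2 was called. Both were also lost without antibody library 2 or 3 or combination library 1, and Srsf2 without combination library 2. Nono lost its call under most alternatives, among them RLE size factors, DESeq2 and library totals. None of 34 proteasome genes and none of 14 autophagy genes was called, with medians of −0.13 and −0.24. The erythroid gene Hbb-b1 was lower (30.2, 96.4 and 82.7 CPM with the antibody alone and 8.54, 0 and 22.6 CPM with both agents), while the alpha-globin genes Hba-a1 and Hba-a2 differed by −0.12 and −0.28 on the log2 scale and did not pass.

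The largest falls by fold were in genes with few counts. Copb2, a coat protein of Golgi vesicles, read 30.2, 40.8 and 55.1 CPM with the antibody alone and 0, 0 and 5.64 CPM with both agents; the antibody libraries held 32 counts and the combination libraries 1, a ratio of 20.3 with a 95% exact counting interval of 3.39 to 825. Yeats2, a chromatin reader, had 30 counts against 2 (ratio 9.50, interval 2.41 to 82.1). Aldh2, the mitochondrial aldehyde dehydrogenase, had 25 against 2 (7.92, 1.97 to 69.0), and Casp8ap2, a regulator of histone transcription, had 23 against 2 (7.28, 1.80 to 63.7). The intervals cover counting error only. Npdc1, a neural protein, read 54.4, 104 and 65.4 CPM with the antibody alone and 8.54, 11.9 and 5.64 CPM with both agents. Selenof, a selenoprotein of the endoplasmic reticulum, read 24.2, 104 and 82.7 CPM with the antibody alone and 0, 0 and 22.6 CPM with both agents. Kmt5a, which methylates lysine 20 of histone H4, read 42.3, 63.0 and 62.0 CPM with the antibody alone and 17.1, 5.97 and 5.64 CPM with both agents. In all, 14 of the 215 lower genes had at most 3 counts over the combination libraries, 2 of them none (Ccser2, with 18 counts over the antibody libraries, and Wnt10a, with 15, both picked for that reason); no higher gene had so few over the antibody libraries. Copb2, Npdc1 and Kmt5a were called under every alternative that gave them a value.

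**Figure D4:**
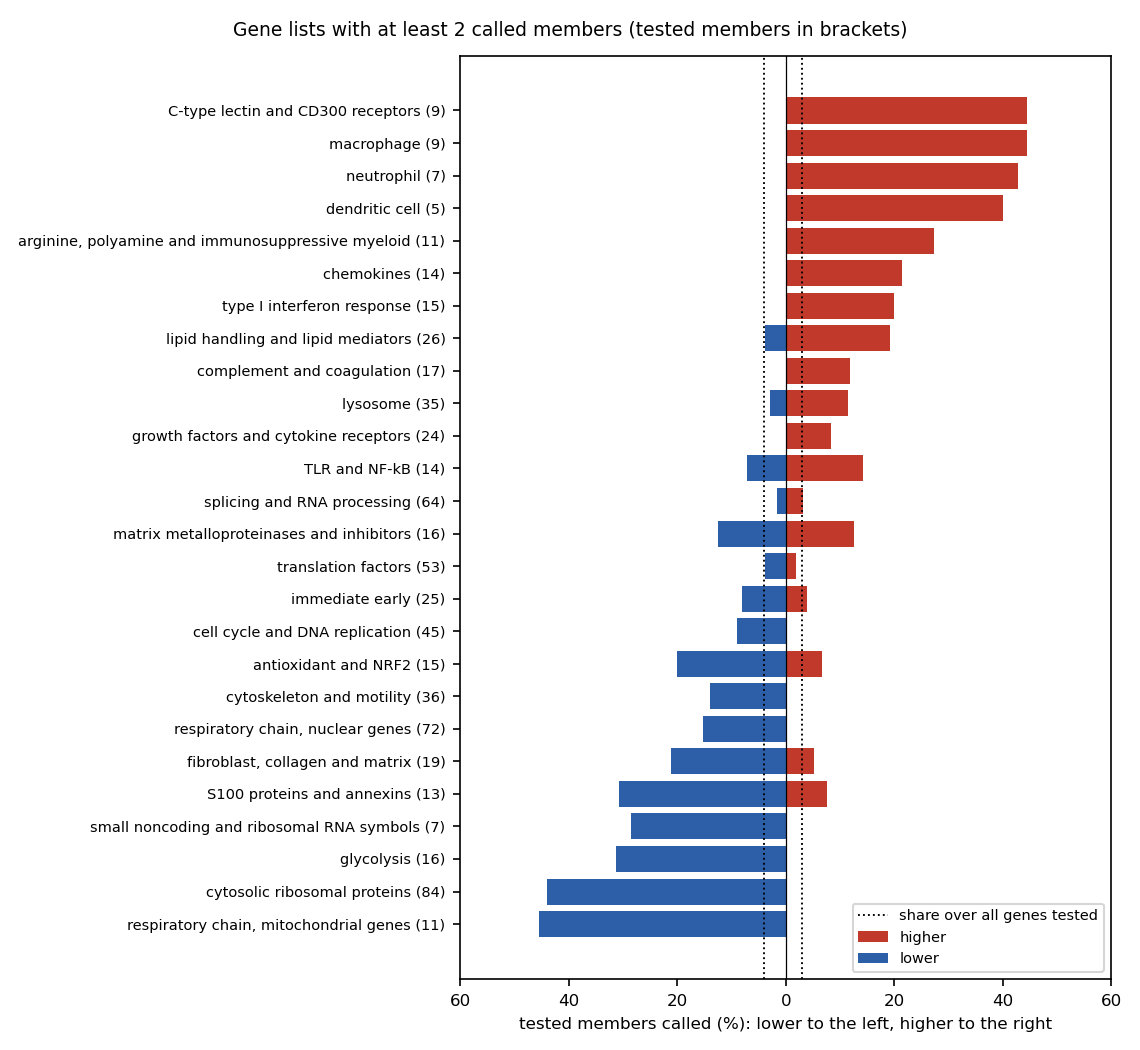
Share of tested members called lower (blue, to the left) and higher (red, to the right) for each list with at least 2 called and at least 5 tested members, in percent, with the number tested in brackets; dotted lines mark 3.95% lower and 2.99% higher over all tested genes. Lists of myeloid receptors and cell types lie at the top with only red bars, and ribosomal, mitochondrial and glycolysis lists at the bottom with only blue bars.

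Without the antibody, the same peptide gave no called gene. Between minP1 and control, edgeR called 0 of the 5443 genes, and 383 (7.04%) had an unadjusted p under 0.05; for the combination against the antibody that number was 1285 (23.6%). The 2 comparisons share no library. Over the 163 genes higher with the combination, the median log2 difference of minP1 minus control was 0.15, against 1.39 with the antibody, and 114 were positive. Over the 215 lower genes it was −0.29, against −1.53, and 187 were negative. The difference was smaller without the antibody for 160 of the 163 and for all 215. The members were chosen for their size with the antibody, so a smaller value elsewhere is partly built into the choice. Mmp9 differed by 1.41 without the antibody, where its counts were near the floor, Apoe by 0.29, Rsad2 by 0.02, Mrc1 by −0.88, S100a9 by −1.65, Rpl5 by −0.69 and Rps28 by −0.40. Fcgr4, at 1.26, was nearly as different without the antibody as with it, at 1.31.

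The test of whether the peptide's difference depends on the antibody, the interaction, called 0 genes with edgeR and had 600 (11%) at an unadjusted p under 0.05. Of these, 107 were among the 163 higher genes and 168 among the 215 lower genes. The interaction contains the difference by which those genes were chosen, so their number is partly built into the choice and is no evidence of dependence on the antibody. DESeq2 called 20 interaction genes. So no named gene can be said to respond to the peptide only in the presence of the antibody. Within the antibody-free libraries, minP1 library 2 lay apart on the first component, at −0.95 where its partners lay at −24.7 and −26.7. It read low for Rpl5 (959.6, 256 and 922 CPM in minP1 libraries 1, 2 and 3) as the combination did. Bc1 and Lrrc17 took 4.17% of its counts and at most 1.94% of its partners'. They took 4.42%, 2.35% and 3.56% of the antibody libraries and 5.04%, 6.32% and 2.49% of the combination libraries. Combination library 3 lay within the antibody range of this share but not of the first component. With this share as a covariate, Rpl5 was still called lower with the combination. The share's part in the place of minP1 library 2 was not tested. Leaving out minP1 library 2 gave 6 interaction genes.

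**Figure D5:**
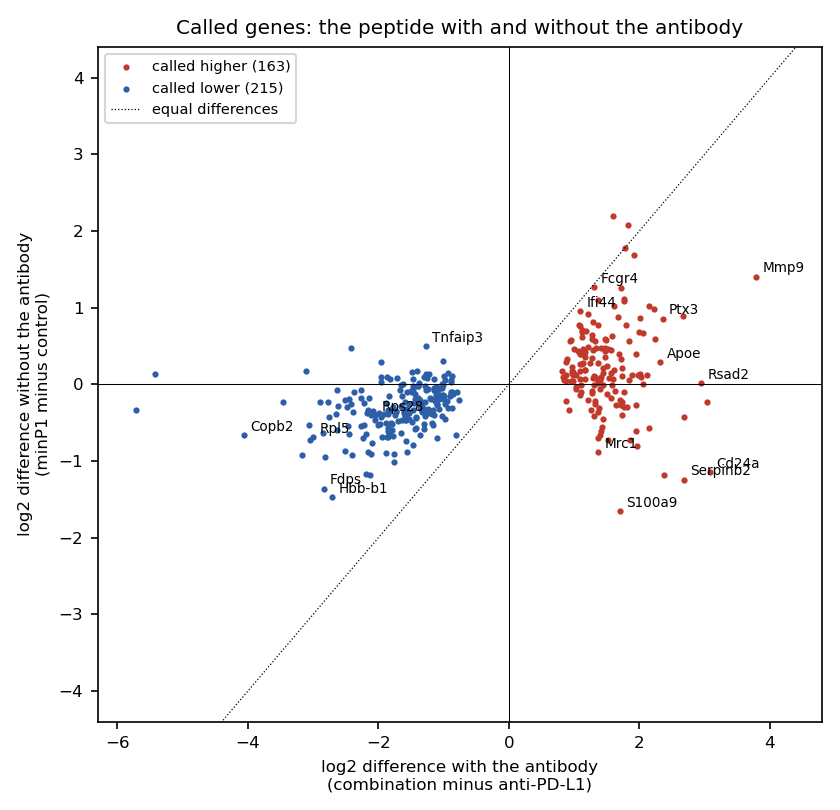
For the 163 higher (red) and 215 lower (blue) genes, the log2 difference with the antibody (combination minus anti-PD-L1, horizontal) against that without it (minP1 minus control, vertical); the dotted line marks equal differences. Nearly all points lie closer to 0 on the vertical than on the horizontal axis, and S100a9, Serpinb2 and Mrc1 are among those on the opposite side of 0 from their value with the antibody.

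Called genes differed in transcript length. The median length of annotated transcripts (GENCODE vM21) was 2408 bases for the higher genes, 1051 for the lower genes and 2019 for all tested genes, with a length found for 96.3%, 81.4% and 92.9%. With tested genes split by length into 5 equal bins, the share called lower was 7.02% in the shortest bin and 1.48% in the longest, and the share called higher was 2.18% and 3.85%. With ribosomal protein genes left out, the share called lower was 4.63% and 1.41%, and the share called higher was 2.31% and 3.92%. The lower genes outside that family had a median length of 1312 bases. Ribosomal protein genes are short, with a median of 678 bases for the 37 lower ones, but uncalled members were as short, at 689 bases. Guanine and cytosine content differed little, with medians of 48.8% for the higher, 50.5% for the lower and 49.7% for all tested genes. The part of transcript length in the calls was not tested. By chromosome, 6 of 13 tested mitochondrial symbols were called, and 3.01% to 9.15% of the tested genes of each other chromosome. Of the symbols that name pseudogenes or predicted genes, 36 were lower and 3 higher. How many such symbols were tested is not given here, so these counts cannot be set against the shares over all tested genes.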

How the data were processed

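The authors deposited raw whole-number counts per gene symbol, 1 table for each of the 12 samples. The submitters' processing notes list Bowtie2 (2.2.5), R (3.6.1), DESeq2 and the build mm10. The tool that counted, its gene models, and how strand and multiply matching reads were treated are not stated there, so copies, overlapping genes and antisense neighbours are uncertain. No molecular identifiers are recorded. Genes passing edgeR's filterByExpr at its defaults (5443 of 19921) were scaled by TMM and tested in edgeR 4.0.16 (R 4.3.3) with the quasi-likelihood test. All 12 samples entered 1 fit of group means, p-values were adjusted over the 5443 genes (Benjamini-Hochberg) at 0.05, and the prior count was 0.125. The biological coefficient of variation was 22.5%. A standard error is the log2 difference divided by the square root of F. The procedure was tested on simulated data. Groups come from titles, and libraries are separate mice per the labels. Alternatives used DESeq2 1.42.0, limma 3.58.1 (voom), other size factors, filters, equal depth, a covariate and left-out libraries. The comparison, the 56 gene lists and the naming rule were chosen with earlier results of these data known. The rule took the 15 largest non-overlapping called changes per direction with a mean of at least 30 CPM, up to 4 called members per list, and 8 genes of interest. Genes beyond it are called members of short lists or were picked with their values in view; some members of the lists are not reported here. An exact permutation test of 3 against 3 cannot reach the threshold and was not used.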

Additional observations from a re-analysis of the deposited data

How the results depend on the processing

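The main counts of 163 higher and 215 lower genes stayed within 1.5 times under DESeq2 (141 and 190), RLE size factors (182 and 205), no filter on low counts (129 and 268), a fit of the 6 libraries alone (171 and 214), equal depth (134 and 178), a covariate for the share of Bc1 and Lrrc17 (174 and 256), library totals (159 and 195) and size factors without ribosomal and mitochondrial symbols (171 and 211); the last 2 were added after the data were seen. With limma voom 145 were higher and 124 lower. Calls were 43.1% higher in the main fit, 32.5% with no filter, 53.9% with voom and 55.7% without combination library 2. Leaving out 1 library gave 42 to 204 higher and 52 to 268 lower genes; a group of 2 then borrows its spread from the others. The interaction, 0 in the main fit, gave 20 genes with DESeq2, 37 with no filter, 1 at equal depth, 35 with the covariate and 0 to 8 with 1 library left out. The cause was not tested. Same-numbered antibody and combination libraries correlated in their deviations at 0.15, −0.06 and 0.20, and differently numbered ones at −0.24 to 0.10. The values for numbers 1 and 3 were the highest of all. The main fit did not take the numbers to pair mice, and so few values cannot decide whether they do. With a replicate block 209 genes were higher, 269 lower and 16 called in the interaction. Over the genes of the naming rule, 1684 comparisons with an alternative kept the side of the threshold, 323 lost the call, 1 gained it and none reversed. The 1684 include genes not called in the main fit, which kept their side by staying uncalled. Values with no adjusted p from DESeq2 are left out. The low totals of the combination libraries limit the genes with low counts.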
